A study of Mus musculus with 15 samples.

Results

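Ribosome biogenesis is followed here through 47 protein-coding genes, among them subunits and factors of RNA polymerase I, proteins of the small nucleolar ribonucleoproteins (snoRNPs) and assembly factors of both ribosomal subunits. They are the rows of a raw gene count table whose Ensembl identifier maps by GENCODE M21, an annotation of the mouse genome build GRCm38, to a list of symbols. All 47 were found among the 46078 identifiers of the table.

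RNA was sequenced from B16-F10 cells, a pigmented mouse melanoma line, in 15 libraries, 3 in each of 5 groups. In a compound arm the cells were given vehicle (DMSO), GSK126 at 2 µM or DZNep at 2 µM. In a parallel siRNA arm they were given either a scrambled control (scr) or one that targets Ezh2 (siEzh2). GSK126 inhibits EZH2, the histone methyltransferase of Polycomb repressive complex 2. DZNep, short for 3-deazaneplanocin A, blocks the hydrolase that clears S-adenosylhomocysteine, a product that holds back methyltransferases in general. All groups are taken as 1 cell line, though the DZNep titles lack the full name B16-F10 and their sample numbers stand apart. The time of treatment is not given in the labels, nor is the sequence of either siRNA, nor the batch of any library. By library number, the DZNep libraries follow DMSO and GSK126 replicates 2 and 3, whereas GSK126 replicate 1 stands beside the siRNA libraries. The part of batch in the DZNep and GSK126 changes was not tested. No label states that replicates were grown as separate cultures, and the p-values then speak only of the spread among these libraries, which may be technical.

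Ribosomes are built in the nucleolus. RNA polymerase I transcribes a precursor that holds the 18S, 5.8S and 28S rRNA, and snoRNPs guide its methylation and pseudouridylation while the small subunit processome and the 60S factors fold it, cut it and load the ribosomal proteins. The genes of this machinery are textbook targets of MYC, and their output is high in fast-growing tumour cells.

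The libraries held 33299524 to 64545747 counts each, and 15152 genes passed the low-count filter, all 47 members included, the lowest member count in any library being 137. Levels are CPM (counts scaled to a common total, with TMM-scaled library sizes), and changes are log2 fold changes ± standard error (SE) from 1 edgeR quasi-likelihood fit of all 15 libraries. Genes with a p under 0.05 after Benjamini-Hochberg adjustment over all genes tested were called. The 10 melanocyte markers summed to between 19100 and 25800 CPM in every library, and the knockdown target Ezh2 stood at 215, 227 and 215 CPM in scr and at 37.6, 39.9 and 41.3 CPM with siEzh2 (log2 −2.47 ± 0.05, adjusted p = 1.22e-17). CPM are shares of a library, so RNA per cell was not measured, and in bulk RNA a change in some cells and a smaller change in all cells cannot be told apart. In all, members took 0.442% to 0.464% of the counts in DMSO, 0.451% to 0.468% with GSK126, 0.475% to 0.496% with DZNep, 0.472% to 0.475% in scr and 0.416% to 0.455% with siEzh2.

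Per kilobase of exon, the DMSO level was highest for Npm1 at 458 CPM per kb and Ncl at 132 CPM per kb, the abundant nucleolar proteins nucleophosmin and nucleolin. The core snoRNP proteins Nop56, Nhp2 and Nop10 followed at 61.9, 41.4 and 37.4 CPM per kb. Polr1e was lowest on this scale at 1.48 CPM per kb. The length used is that of all exons of a gene in the GENCODE basic set, not of a single transcript. It was 9539 bases for Nop58, at 197 CPM in DMSO, and 1907 bases for Nop56, so this order depends on the annotation. Counts of 12 members may hold reads of other genes, or lack reads that also match other genes. Their longest coding transcript matches a transcript of another gene over at least 200 bases at 95% identity or more. How reads with several matches were counted is not given, so the direction of any bias in their levels is not known. Npm1 and Nop56 have 4 such processed pseudogenes each, Fbl, Ddx21, Imp3, Pes1, Wdr12 and Mrto4 have processed copies or related transcripts, and for Bysl, Noc2l, Tsr1 and Imp4 the match is an overlapping gene on the other strand, Ccnd3, Samd11, Srr and Gm28306. The strand setting of the counting is not given in the sources used here, so reads of such pairs cannot be told apart.

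**Figure D1:**
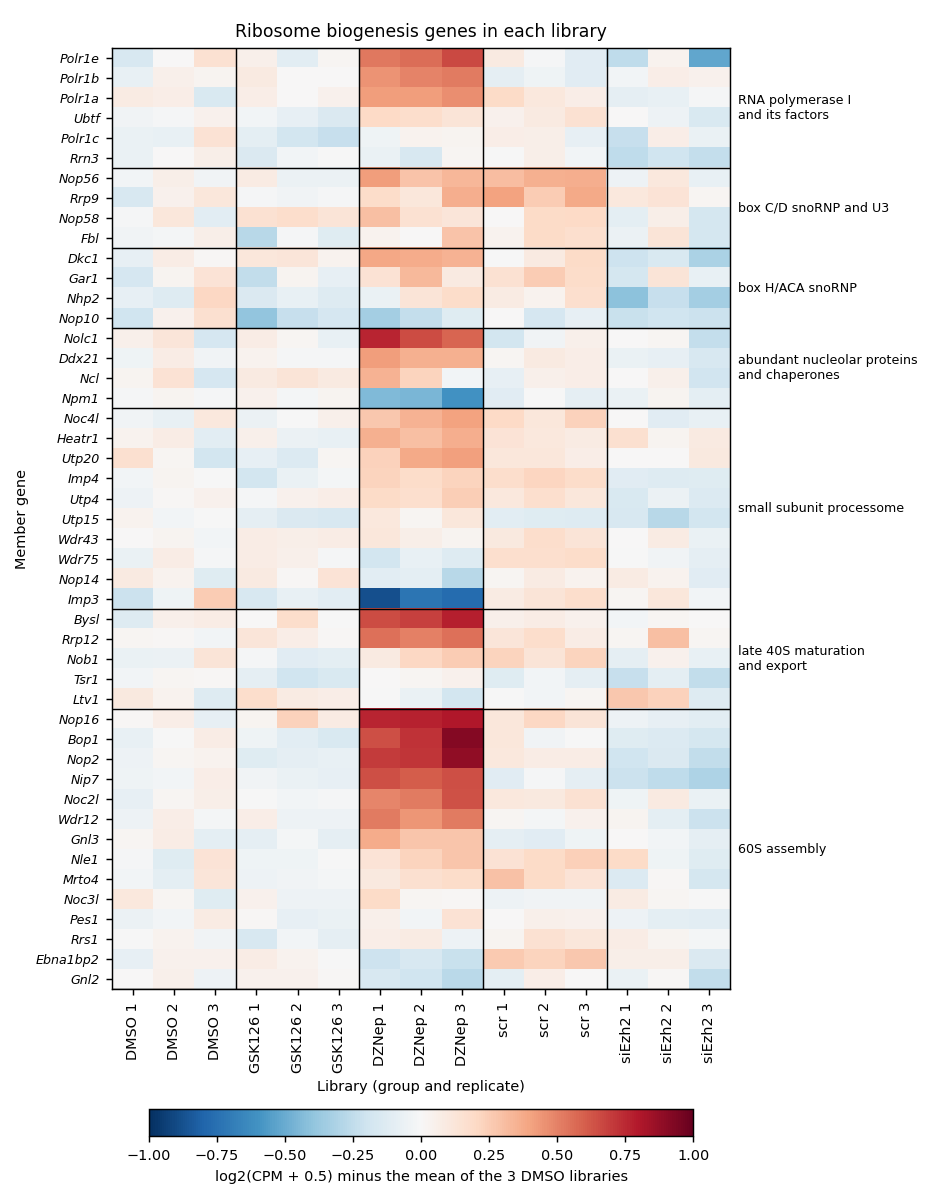
Level of each member (rows, grouped by role) in each of the 15 libraries (columns), as log2(CPM + 0.5) minus the mean of the 3 DMSO libraries, on a colour scale from −1 to 1. The 3 DZNep columns hold the deepest colours, red for most 60S and RNA polymerase I genes and blue for Imp3 and Npm1, while the GSK126 columns stay pale.

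With DZNep, genes of the machinery changed in both directions, more of them upward. Against DMSO, 26 of the 47 members rose and 7 fell, where 62.3% of all genes tested were called, 31.2% higher and 31% lower. The members' share called, 70.2%, was thus near that of all genes, whereas the share that rose was 55.3% and the share that fell 14.9%. Their median log2 fold change was 0.19, beside 0.002 over all genes tested, and no member changed by a full log2 unit. All DZNep libraries lay above all DMSO libraries in 25 members and below them in 5, where 31.4% of all genes tested lay above, 31.6% below and 63% on either side. The median member stood 0.185 to 0.246 above the DMSO mean on the log2 scale in the 3 DZNep libraries and between −0.036 and 0.025 in the DMSO libraries. Of the members that rose, 22 kept the call in each of 12 other settings, and of those that fell Npm1, Imp3, Gnl2 and Ebna1bp2 did.

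Of the 6 RNA polymerase I genes, 4 rose with DZNep (66.7%) and none fell, beside 31.2% and 31% of all genes tested. Polr1a, the largest catalytic subunit, was at 111, 110 and 94.3 CPM in DMSO and at 140, 140 and 145 CPM with DZNep (log2 0.43 ± 0.06, adjusted p = 2.53e-06). Polr1b, the second-largest subunit, went from 27.9, 30.5 and 30 CPM to 40.3, 41.8 and 42.5 CPM (0.49 ± 0.05, adjusted p = 1.14e-07). Polr1e, a subunit of the heterodimer that docks on the enzyme, went from 4.49, 5.1 and 5.71 CPM to 7.55, 7.7 and 8.31 CPM (0.61 ± 0.12, adjusted p = 0.000172). In these 3 genes every DZNep library lay above every DMSO library. Ubtf, which binds rDNA and recruits the polymerase, rose less, from 99.1, 101 and 105 CPM to 117, 115 and 111 CPM (0.17 ± 0.05, adjusted p = 0.00891), also without overlap. Polr1c, which RNA polymerase III shares, was at 34.9, 34.6 and 40.4 CPM in DMSO and at 35.5, 37.5 and 37.2 CPM with DZNep (0.00 ± 0.07, adjusted p = 0.99). Rrn3, the initiation factor that couples the polymerase to growth signals, was at 123, 129 and 134 CPM and at 123, 115 and 130 CPM (−0.07 ± 0.05, adjusted p = 0.281). For Polr1c and Rrn3 the libraries of both groups overlapped.

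Among 14 other RNA polymerase I genes, 5 rose (35.7%) and 4 fell (28.6%), shares near the 31.2% and 31% of all genes tested. Cd3eap, the partner of Polr1e in its heterodimer, rose from 5.79 ± 0.537 to 12.2 ± 0.583 CPM (SD, n = 3 each; log2 1.08 ± 0.08, adjusted p = 1.05e-09). The subunits of the promoter factor SL1 went both ways, with Taf1c at 0.61 ± 0.11, Taf1b at −0.61 ± 0.06 and Taf1d at −0.56 ± 0.08. RNA polymerase III subunits were also split, with 5 of 11 higher (45.5%) and 4 lower (36.4%). Among them Polr3d was at 0.36 ± 0.09, Polr3e at −0.54 ± 0.07 and Polr3gl at −0.29 ± 0.06.

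Of the 4 box C/D snoRNP proteins, which methylate rRNA and with U3 help to cut it, 3 rose with DZNep. That is 75%, beside 31.2% of all genes tested. Nop56 rose by 0.35 ± 0.06, the U3 protein Rrp9 by 0.23 ± 0.09 and Nop58 by 0.19 ± 0.07, while the methyltransferase fibrillarin (Fbl) was at 0.11 ± 0.09 (adjusted p = 0.307). The box H/ACA proteins, which carry out pseudouridylation and are also part of telomerase, did not move as a block. Dkc1, the pseudouridine synthase, was at 75.7, 84.2 and 80.7 CPM in DMSO and at 105, 104 and 102 CPM with DZNep (0.37 ± 0.06, adjusted p = 1.39e-05), with no overlap. Nop10 was lower, at 35.9, 42.4 and 46 CPM in DMSO and 32.4, 34.8 and 37.8 CPM with DZNep (−0.25 ± 0.08, adjusted p = 0.0127), but the libraries overlapped and the call was lost without DMSO replicate 3 or DZNep replicate 1. Nhp2 was at 40.5, 39.1 and 49.6 CPM and at 40.9, 46.9 and 48.7 CPM (0.08 ± 0.08). Gar1 was at 29.7, 33.9 and 36.8 CPM and at 37, 41.8 and 35.5 CPM (0.18 ± 0.09, adjusted p = 0.0819). Both of these overlapped between the groups and did not pass the test.

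The abundant nucleolar proteins parted. Nolc1, a chaperone of snoRNPs, rose from 109, 115 and 93.6 CPM to 179, 166 and 158 CPM (0.67 ± 0.08, adjusted p = 1.45e-06). Ddx21, a helicase of the nucleolus, rose by 0.37 ± 0.05. Npm1 (nucleophosmin, on chr11:33152287-33163206), the histone and assembly chaperone of the granular nucleolus, fell from 923, 946 and 923 CPM to 684, 678 and 611 CPM (−0.50 ± 0.05, adjusted p = 1.05e-07). Nucleolin (Ncl) was at 1100, 1190 and 959 CPM in DMSO and at 1370, 1260 and 1060 CPM with DZNep (0.18 ± 0.09, adjusted p = 0.0953), with overlap. Nolc1 and Npm1 thus lay outside their controls in opposite directions, whereas Ncl did not pass the test. Without Npm1 and Ncl, members took 0.246% to 0.253% of the counts in DMSO and 0.291% to 0.306% with DZNep.

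**Figure D2:**
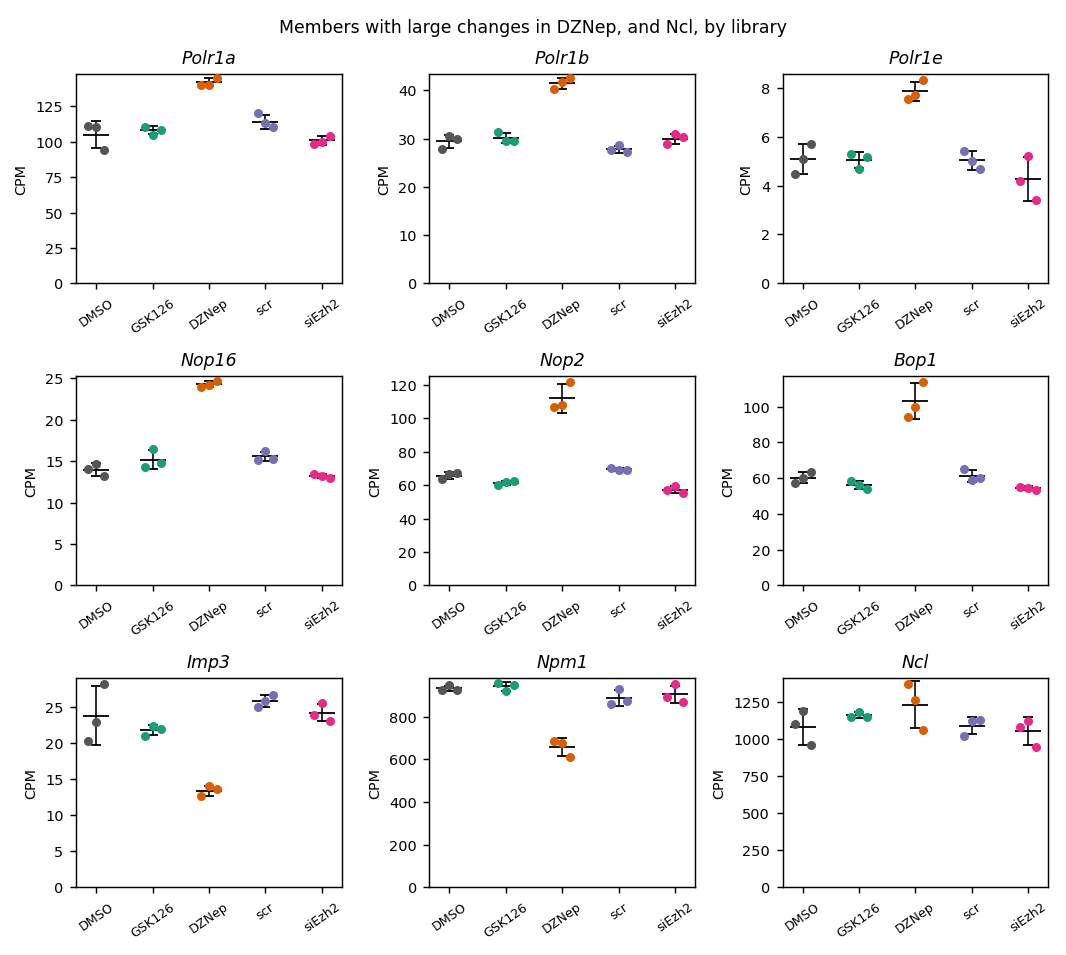
CPM (vertical axes, from 0) of 9 members in the 5 groups, with a point per library and the mean ± SD of 3 libraries in black. The DZNep points of Polr1a, Polr1b, Polr1e, Nop16, Nop2 and Bop1 lie above all other points, those of Imp3 and Npm1 below all others, and those of Ncl overlap DMSO.

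In the small subunit processome, the particle that folds the 5′ end of the precursor, 5 of 10 members rose and 3 fell. The share that fell, 30%, was near the 31% of all genes tested, and 50% rose, beside 31.2%. Noc4l, Heatr1 and Utp20 rose by 0.35 ± 0.06, 0.34 ± 0.05 and 0.34 ± 0.07, and Imp4 and Utp4 by 0.21 ± 0.05 and 0.20 ± 0.05. Imp3 (chr9:56937475-56938398), which joins Imp4 in the complex that pairs U3 with the precursor, had the largest fall of all members. It was at 20.3, 22.9 and 28.2 CPM in DMSO and at 12.6, 14 and 13.6 CPM with DZNep (−0.84 ± 0.09, 1.78-fold lower, adjusted p = 1.11e-07). Wdr75, a part of the early complex that also affects rRNA transcription, was at 60.8, 67 and 63.1 CPM and at 55.9, 60.3 and 58 CPM (−0.13 ± 0.05, adjusted p = 0.0291). Imp3 and Wdr75 did not overlap their controls, whereas Nop14 (−0.16 ± 0.07) did. Utp15 and Wdr43 were at 0.08 ± 0.05 and 0.07 ± 0.05 and did not pass.

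Late steps of the 40S subunit showed 3 of 5 members higher (60%, beside 31.2% of all genes tested). Bysl, which binds the pre-40S particle, rose from 32.6, 36.8 and 37.6 CPM to 56.1, 57.4 and 61.4 CPM (0.71 ± 0.06, adjusted p = 4.47e-09), with no overlap. Its exons share 361 bases with Ccnd3, so its counts are uncertain. Rrp12, an export factor, rose by 0.55 ± 0.07, and Nob1, the nuclease that makes the end of 18S rRNA, by 0.18 ± 0.07, though Nob1's libraries overlapped. Tsr1 (0.02 ± 0.05) and Ltv1 (−0.09 ± 0.08) did not pass.

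The 60S factors held the largest increases, with 8 of 14 higher (57.1%) and 2 lower (14.3%), beside 31.2% and 31% of all genes tested. Nop16 (chr13:54584185-54590090) was at 14.1, 14.7 and 13.2 CPM in DMSO and at 24, 24.2 and 24.7 CPM with DZNep (0.80 ± 0.07, 1.74-fold, adjusted p = 2.04e-09). Nop2 (chr6:125131909-125144753), a methyltransferase of 28S rRNA, was at 63.5, 66.5 and 67.3 CPM and at 107, 108 and 122 CPM (0.77 ± 0.05, 1.71-fold, adjusted p = 1.54e-10). Nip7 was at 29.9, 30.2 and 32.3 CPM and at 48.3, 47 and 48.4 CPM (0.64 ± 0.05, adjusted p = 2.16e-09). In these 3 genes, whose products act in the nucleolar pre-60S particle, the groups did not overlap. Bop1, which with Pes1 and Wdr12 forms the complex needed to process the 28S side of the precursor, was at 57.2, 60.1 and 63.3 CPM in DMSO and at 94.1, 99.7 and 114 CPM with DZNep (0.77 ± 0.06, adjusted p = 2.57e-09). Its partner Wdr12 rose by 0.50 ± 0.06, while Pes1 was at 0.06 ± 0.05 (adjusted p = 0.376). Noc2l, Gnl3 (nucleostemin) and Nle1 rose by 0.55 ± 0.05, 0.31 ± 0.05 and 0.22 ± 0.08, and Nle1's libraries overlapped. Mrto4, Noc3l and Rrs1 did not pass, at 0.15 ± 0.07, 0.07 ± 0.06 and 0.03 ± 0.05.

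The 60S members that fell did so by little. Gnl2, a nucleolar GTPase, was at 56.2, 58.2 and 54.1 CPM in DMSO and at 50.1, 48.8 and 46.6 CPM with DZNep (−0.21 ± 0.06, adjusted p = 0.00555). Ebna1bp2 was at 34.3, 37.5 and 37.5 CPM and at 31.4, 32.5 and 31.1 CPM (−0.20 ± 0.06, adjusted p = 0.00628). For both, every DZNep library lay below every DMSO library.

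Assembly factors outside the 47 were split too. Of 42 other small subunit factors, 18 were higher (42.9%) and 6 lower (14.3%). Of 46 other large subunit factors, 24 were higher (52.2%) and 6 lower (13%). Among all genes tested, 31.2% were higher and 31% lower. Dhx33 (0.64 ± 0.05) and Nop9 (0.63 ± 0.07) led the first list upward and Utp3 (−0.53 ± 0.08) and Tsr2 (−0.48 ± 0.08) downward. In the second, Las1l, which acts in cutting the internal spacer, was at 0.79 ± 0.06 and Rbm28 at 0.45 ± 0.06, against Nop53 at −0.62 ± 0.07 and Nsa2 at −0.55 ± 0.06. Of 16 genes of the RNA exosome and rRNA exonucleases, 7 rose (43.8%) and 2 fell (12.5%). Their largest changes were Eri1 (0.51 ± 0.06) and Exosc2 (0.50 ± 0.05) upward, and Xrn2 (−0.36 ± 0.06) and Exosc9 (−0.21 ± 0.05) downward.

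A separate list of 12 snoRNA host genes, whose introns carry snoRNAs, went the other way, with 9 lower (75%) and 2 higher (16.7%). Their median was −0.77. Among all genes tested, 31% were lower and 31.2% higher. Members whose annotated exons overlap a snoRNA did not fall. Nop56 (0.35 ± 0.06), Gnl3 (0.31 ± 0.05) and Nop58 (0.19 ± 0.07) rose, and Ncl (0.18 ± 0.09) was not called. Snhg12 fell from 24.9 ± 1.16 to 4.64 ± 0.345 CPM (SD, n = 3 each; log2 −2.42 ± 0.10, adjusted p = 3.73e-14) and Gas5 from 148 ± 6.24 to 50 ± 6.2 CPM (−1.57 ± 0.10). Snhg15 (1.13 ± 0.10) and Snhg17 (0.51 ± 0.08) rose. Of 82 cytosolic ribosomal protein genes, the load of the finished particles, 39 fell (47.6%) and 6 rose (7.32%), with a median of −0.28. Among them Rps12 was at −0.99 ± 0.14, Rps16 at −0.83 ± 0.20, the paralog Rps27l at 0.87 ± 0.11 and Rpl41 at 0.64 ± 0.20. These 82 genes took only 0.692% to 1.05% of the counts in any library, many have processed copies, and how reads with several matches were counted is not given, so their values are uncertain.

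**Figure D3:**
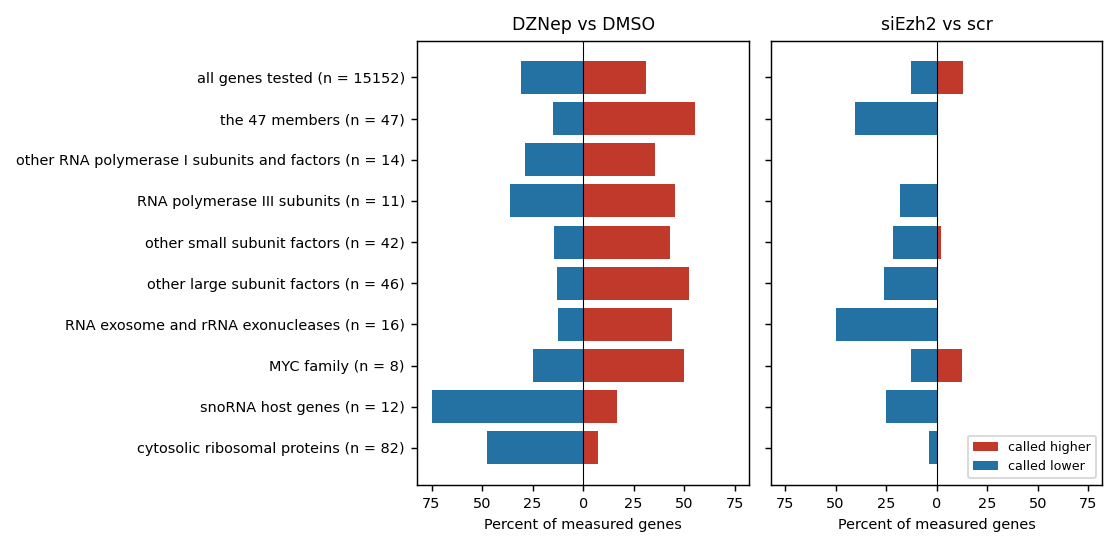
Percent of measured genes called higher (red, to the right) and lower (blue, to the left) in DZNep against DMSO and in siEzh2 against scr, for all genes tested, the 47 members and 8 related lists. In DZNep the members and the other assembly factors extend further to the right than all genes, and the snoRNA host and ribosomal protein genes further to the left. With siEzh2, 40.4% of members and 50% of the exosome list stand on the left.

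Myc, the transcription factor that pairs with Max to bind the sequence CACGTG (the E-box), was at 59.5, 68.6 and 66.1 CPM in DMSO and at 108, 93.1 and 99.6 CPM with DZNep (log2 0.63 ± 0.07, adjusted p = 3.26e-07). Max rose by 0.36 ± 0.06, and Mnt, which competes for Max, fell by 0.44 on the log2 scale (SE 0.06). Of 8 genes of the MYC family, 4 rose (50%) and 2 fell (25%), beside 31.2% and 31% of all genes tested. The second that fell was Mxi1 at −0.14 ± 0.06. The letters CACGTG, which read the same on both strands, were then searched in RefSeq promoters of GRCm38.p6 from 250 bases before to 50 after the start site. At least 1 match stood in 10 of 41 members with an entry (24.4%) and in 2187 of 27025 genes in all (8.09%). These are unlike sets, since all members passed the low-count filter and the 27025 genes include some that did not. Those 10 were Imp4, Ltv1, Nle1, Nop2, Pes1, Rrn3, Tsr1, Utp20, Utp4 and Wdr43, and Rrn3 had 2 matches. By response to DZNep, a match stood in 5 of 24 members that rose, 0 of 5 that fell and 5 of 12 that were not called. A match is only a description of these letters and shows no binding.

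The 250 bases before the start are shown for the 3 largest increases and the 3 largest decreases that did not overlap their controls and had an entry, so that promoters of genes moving in opposite directions can be compared. They are from RefSeq on GRCm38.p6, 5′ to 3′ along the gene, with CACGTG in capitals.
Nop16, chr13:54590075-54590324, minus strand: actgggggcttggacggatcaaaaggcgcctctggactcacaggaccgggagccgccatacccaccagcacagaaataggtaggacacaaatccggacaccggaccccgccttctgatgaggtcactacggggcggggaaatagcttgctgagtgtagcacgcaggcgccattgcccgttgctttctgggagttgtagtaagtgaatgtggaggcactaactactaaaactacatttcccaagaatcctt
Nop2, chr6:125131633-125131882, plus strand: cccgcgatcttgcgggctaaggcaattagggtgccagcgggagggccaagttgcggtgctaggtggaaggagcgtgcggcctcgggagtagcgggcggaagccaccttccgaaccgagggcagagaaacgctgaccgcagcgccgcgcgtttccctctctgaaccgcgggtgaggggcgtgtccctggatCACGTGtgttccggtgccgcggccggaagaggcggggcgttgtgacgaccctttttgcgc
Bysl, chr17:47611493-47611742, minus strand: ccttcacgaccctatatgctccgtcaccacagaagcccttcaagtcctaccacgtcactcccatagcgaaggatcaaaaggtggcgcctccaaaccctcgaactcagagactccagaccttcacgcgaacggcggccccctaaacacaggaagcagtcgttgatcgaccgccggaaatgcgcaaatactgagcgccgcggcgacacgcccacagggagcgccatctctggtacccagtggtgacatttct
Imp3, chr9:56937250-56937499, plus strand: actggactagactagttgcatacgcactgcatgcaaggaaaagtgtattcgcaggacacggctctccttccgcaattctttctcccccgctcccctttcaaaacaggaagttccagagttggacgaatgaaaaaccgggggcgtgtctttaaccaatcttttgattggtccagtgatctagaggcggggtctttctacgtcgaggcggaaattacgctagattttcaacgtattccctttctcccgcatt
Ebna1bp2, chr4:118620549-118620798, plus strand: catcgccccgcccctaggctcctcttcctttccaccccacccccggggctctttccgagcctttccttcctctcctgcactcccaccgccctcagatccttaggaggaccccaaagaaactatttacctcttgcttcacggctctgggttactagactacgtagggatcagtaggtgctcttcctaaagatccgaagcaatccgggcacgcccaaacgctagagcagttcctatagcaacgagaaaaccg
Wdr75, chr1:45794916-45795165, plus strand: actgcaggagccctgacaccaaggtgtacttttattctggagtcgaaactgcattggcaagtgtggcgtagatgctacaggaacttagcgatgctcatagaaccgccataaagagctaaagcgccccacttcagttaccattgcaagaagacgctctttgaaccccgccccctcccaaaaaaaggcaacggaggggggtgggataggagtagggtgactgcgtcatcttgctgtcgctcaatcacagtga
Of these 6, only Nop2 holds the E-box, which starts 60 bases before its start site. Nop16 and Bysl, which rose as well, hold no match in this window.

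With DZNep, some markers of other cell types also moved. Of 9 fibroblast markers, 5 passed the low-count filter and 4 rose. Their sum was 398 to 416 CPM with DZNep against 190 to 229 CPM in DMSO, carried by Fbln1 and Postn, while Thy1 had 0 counts in all libraries and Dcn and Col3a1 3 and 5 counts in all. Of 12 blood and endothelial markers 2 passed the filter, 1 of them called higher and the other not called. The sum of the 12 was 4.07 to 4.68 CPM with DZNep and 2.15 to 2.65 CPM in DMSO. It was carried by Fcer1g, at a mean of 3.9 CPM with DZNep and 1.87 CPM in DMSO. Lyz2 was at 0.18 and 0.3 CPM and Pecam1 at 0.0892 and 0.159 CPM. Of the 10 melanocyte markers 4 rose and 3 fell, and their sum was 22300 to 22700 CPM against 25500 to 25800 CPM. The mitochondrially encoded share, a sign of RNA quality, was 5.98% to 8.17% with DZNep and 8.05% to 8.96% in DMSO, with overlap. The part of these markers and of this share in the members' changes was not tested.

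With GSK126, 1 member of 47 was called. Nop10 was lower, where 12.7% of all genes tested were called, 7.15% higher and 5.54% lower. The member median was −0.028, beside −0.009 over all genes, and the 47 values ran from −0.27 to 0.15. Nop10 was at 35.9, 42.4 and 46 CPM in DMSO and at 31.3, 35.1 and 36.7 CPM with GSK126 (−0.27 ± 0.08, adjusted p = 0.0319). The groups overlapped, and the call was lost without DMSO replicate 2 or 3, without GSK126 replicate 1 or 2, with library totals alone and with the 2 groups fitted alone. Without DMSO replicate 1, Imp3 (−0.14 ± 0.09 with all libraries) was called as well.

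In the RNA polymerase I genes, GSK126 and DMSO libraries overlapped for all but Polr1c. Polr1a was at 110, 105 and 108 CPM with GSK126, Polr1b at 31.3, 29.6 and 29.5 CPM and Polr1e at 5.28, 4.68 and 5.15 CPM. Ubtf was at 100, 96 and 91.9 CPM and Rrn3 at 116 to 128 CPM. These 5 had log2 fold changes between −0.08 and 0.04. Polr1c was at 34.2, 32.1 and 31.1 CPM, all below the DMSO libraries, and did not pass (−0.18 ± 0.07, adjusted p = 0.125). Dkc1 stood at 86.5, 87.2 and 82.3 CPM, Nhp2 at 38.8, 40.7 and 39.1 CPM and Gar1 at 28, 33.9 and 31.4 CPM, none of them called. Of the 10 melanocyte markers 6 were lower with GSK126, the sum being 21600 to 21900 CPM against 25500 to 25800 CPM in DMSO, and their part in these values was not tested. Myc was at 65.8, 64.5 and 66.3 CPM with GSK126, within the range of its DMSO libraries.

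DZNep was also compared with GSK126 directly, at the same dose of 2 µM. Of the members, 33 were higher with DZNep and 6 lower, where 64.6% of all genes tested were called, 32.9% higher and 31.7% lower. All DZNep libraries lay above all GSK126 libraries in 32 members and below them in 7, where 35.8% of all genes lay above, 34.7% below and 70.5% on either side. The member median was 0.26, beside 0.004 over all genes. The largest differences were Nop2 and Bop1, each at 0.87 (SE 0.05 and 0.06), Nip7 at 0.70 ± 0.05 and Nop16 at 0.67 ± 0.07 upward, and Imp3 at −0.70 ± 0.09 and Npm1 at −0.52 ± 0.05 downward. This comparison shares its DZNep libraries with the one against DMSO, and the part of batch was not tested in either. The compounds did not differ past the threshold in 8 members, among them Rrn3 (−0.01 ± 0.05), Nop10 (0.03 ± 0.08), Ncl (0.08 ± 0.09) and Nop58 (0.04 ± 0.07).

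**Figure D4:**
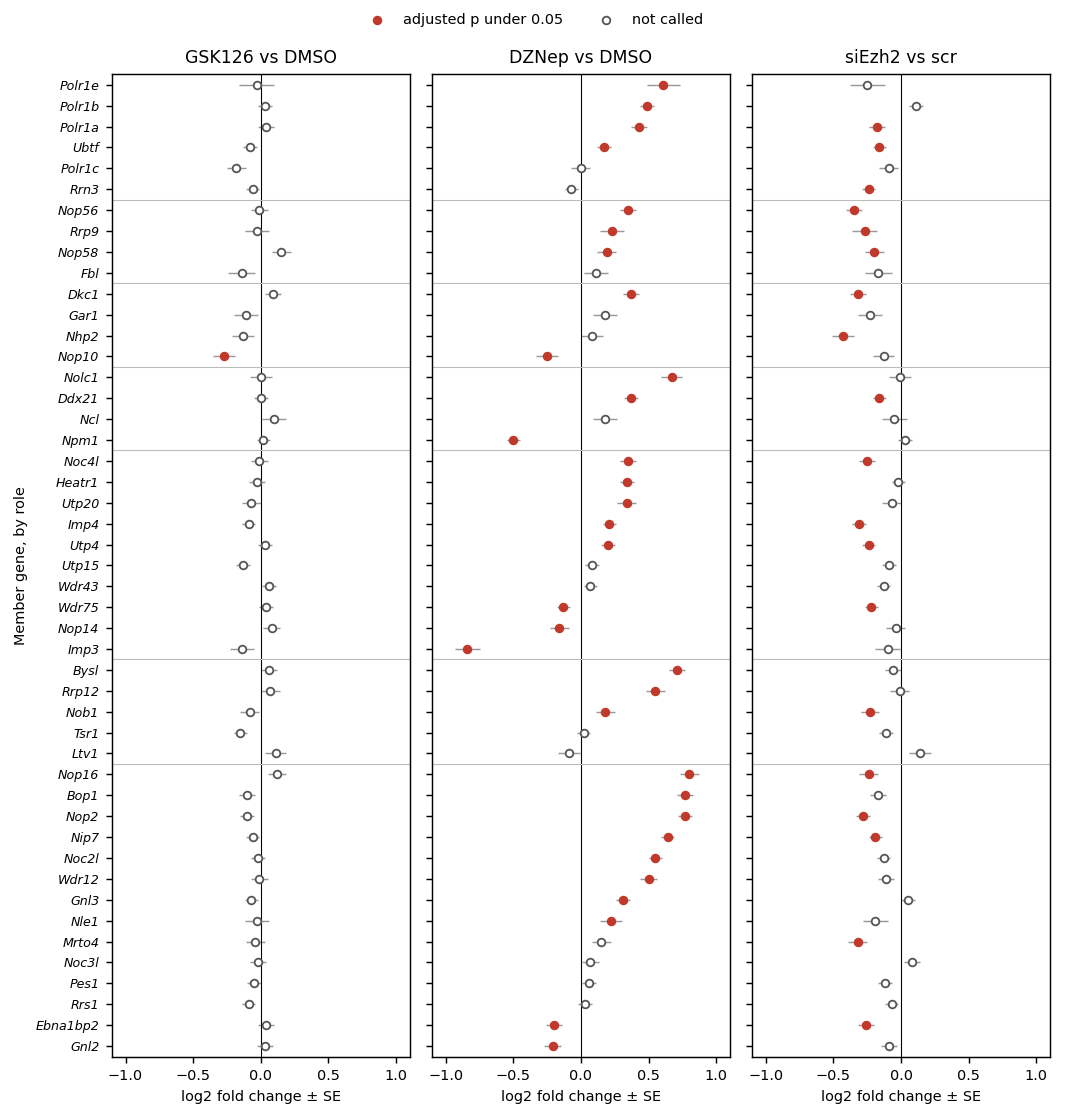
log2 fold change ± SE of each member (rows, by role) in GSK126 against DMSO, DZNep against DMSO and siEzh2 against scr, with filled red points for an adjusted p under 0.05. In the first panel only Nop10 is filled, in the second 33 points are filled on both sides of 0, and in the third all 19 filled points lie left of 0.

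With the siRNA against Ezh2, members fell and none rose. Against scr, 19 of the 47 fell, where 26.1% of all genes tested were called, 13.2% higher and 12.9% lower. The member median was −0.161, beside −0.011 over all genes, and was −0.099 without siEzh2 replicate 3, the library in which members stood lowest. The siEzh2 libraries all lay below all scr libraries in 26 members, against 21.6% of all genes tested. The changes were small, the largest being 1.35-fold. They also depend on the control: with the DMSO libraries in its place, 7 members fell and none rose, where 14.2% of all genes were called, 6.41% higher and 7.76% lower, and the median was −0.06. The siEzh2 libraries lay below the DMSO libraries in 12 members and above them in 0, where 15.2% of all genes lay below and 13.3% above. Of the 19 members lower than in scr, 9 were called higher in scr than in DMSO, and 5 were called lower against DMSO. In 11 of the 19 the siEzh2 libraries overlapped the DMSO libraries.

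Nhp2 had the largest fall, from 45.3, 44 and 48.3 CPM in scr to 32.1, 36.4 and 33.7 CPM with siEzh2 (−0.43 ± 0.08, adjusted p = 0.000551). Its partner Dkc1 fell from 79.8, 85.4 and 91.4 CPM to 69.2, 72 and 64.3 CPM (−0.32 ± 0.06, adjusted p = 0.000299). In both genes all siEzh2 libraries were below all scr and all DMSO libraries. The other H/ACA proteins were also below scr in every library without passing. Gar1 was at 37.2, 39.9 and 37.9 CPM in scr and at 29.4, 36.5 and 31.7 CPM with siEzh2 (−0.23 ± 0.09, adjusted p = 0.0639). Nop10 was at 41.3, 36.6 and 39 CPM and at 35.3, 35.8 and 35.5 CPM (−0.13 ± 0.08, adjusted p = 0.248).

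Of the box C/D proteins 3 fell (75%, beside 12.9% of all genes tested). Nop56 led, from 146, 151 and 152 CPM in scr to 114, 127 and 112 CPM with siEzh2 (−0.35 ± 0.06, adjusted p = 0.00012). Its DMSO libraries, at 116, 123 and 115 CPM, lay among the knockdown libraries. Rrp9 (−0.27 ± 0.09) and Nop58 (−0.20 ± 0.07) fell too, the latter with overlap. Against DMSO, Nop56 was at 0.00 ± 0.06 and Rrp9 at 0.08 ± 0.09, so neither was lower on that scale.

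For RNA polymerase I, 3 of 6 members fell (50%, beside 12.9% of all genes tested). Rrn3 went from 129 ± 4.17 CPM in scr (SD, n = 3) to 108, 112 and 109 CPM with siEzh2 (−0.24 ± 0.05, adjusted p = 0.00244), below every DMSO library as well. Polr1a went from 120, 113 and 110 CPM to 98.6, 99.8 and 104 CPM (−0.18 ± 0.06, adjusted p = 0.0306), and Ubtf from 105, 108 and 113 CPM to 102, 98.2 and 91.4 CPM (−0.16 ± 0.05, adjusted p = 0.0275). Those last 2 overlapped the DMSO libraries and each lost its call when some single libraries were left out. Polr1b was at 27.6, 28.6 and 27.2 CPM in scr and at 28.9, 30.9 and 30.4 CPM with siEzh2 (0.11 ± 0.05, adjusted p = 0.142). Polr1c was at 38.3, 38 and 34.5 CPM and at 31.1, 38.3 and 34.9 CPM (−0.09 ± 0.07). Polr1e was at 5.43, 5.02 and 4.66 CPM and at 4.19, 5.22 and 3.4 CPM (−0.25 ± 0.13). These last 3 did not pass the test.

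In the processome Imp4 fell from 89.3, 92.1 and 90 CPM to 73, 72.3 and 72.8 CPM (−0.31 ± 0.05, adjusted p = 4.44e-05), and Noc4l, Utp4 and Wdr75 by 0.25, 0.24 and 0.22 on the log2 scale. Among 60S factors Mrto4, which resembles a stalk protein of the ribosome, fell from 24.7, 23 and 22.1 CPM to 18.2, 20.2 and 17.7 CPM (−0.32 ± 0.07, adjusted p = 0.00183). Nop2 fell from 70.6, 69.2 and 69.1 CPM to 57.2, 59.5 and 55.5 CPM (−0.28 ± 0.05, adjusted p = 0.000582), and its knockdown libraries were below all DMSO libraries too. The rest that passed were Ebna1bp2 (−0.26 ± 0.06), Nop16 (−0.24 ± 0.07), Nip7 (−0.19 ± 0.05), Nob1 (−0.23 ± 0.07) and Ddx21 (−0.16 ± 0.05). Npm1 (0.03 ± 0.05), Ncl (−0.05 ± 0.09), Nolc1 (−0.01 ± 0.08) and Imp3 (−0.10 ± 0.09) did not pass. Against DMSO, Imp4, Noc4l, Utp4, Wdr75 and Mrto4 were not called, at −0.12, −0.07, −0.11, −0.04 and −0.11. Nor were Ebna1bp2, Nop16, Nob1 and Ddx21, at −0.01, −0.08, −0.04 and −0.10, whereas Nip7 was called lower there.

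The scr libraries differed from the DMSO libraries too, in a comparison where scrambled siRNA, arm and batch cannot be told apart. Members were higher in 10 cases and lower in none, where 25.9% of all genes tested were called, 12.2% higher and 13.6% lower. Of all calls 47.3% were thus higher, and 58.5% with library totals alone. The largest were Rrp9 (0.35 ± 0.08), Nop56 (0.34 ± 0.06), Ebna1bp2 (0.25 ± 0.06), Mrto4 (0.21 ± 0.07), Imp4 (0.19 ± 0.05) and Nob1 (0.19 ± 0.07). Noc4l, Wdr75, Wdr43 and Utp4 were at 0.18 ± 0.06, 0.17 ± 0.05, 0.14 ± 0.05 and 0.13 ± 0.05. This count was 4 without DMSO replicate 1, 5 without DMSO replicate 2, scr replicate 1 or scr replicate 3, and 4 without the count filter or with the 2 groups fitted alone. Nop56, Rrp9, Imp4 and Ebna1bp2 were called in all settings tried. As scr is the control of the knockdown, both comparisons share the scr libraries, and a high scr level enters them with opposite signs.

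When DMSO served as the control of siEzh2, the 7 members that fell were Nhp2 (−0.34 ± 0.08), Nip7 (−0.27 ± 0.05), Dkc1 (−0.23 ± 0.06), Rrn3 (−0.23 ± 0.05), Utp15 (−0.21 ± 0.05), Nop2 (−0.20 ± 0.05) and Tsr1 (−0.19 ± 0.05). Dkc1, Nhp2, Nop2 and Rrn3 were called lower against scr in every setting tried, the change of control included. Batch and arm cannot be told apart for DMSO and siEzh2, since DMSO libraries come from the compound arm. Melanocyte markers moved with the same groups: 9 of 10 were higher with siEzh2 than in scr, summing to 24300 to 25800 CPM against 19100 to 20200 CPM, and DMSO stood at 25500 to 25800 CPM. Of 5 fibroblast markers measured 3 were higher with siEzh2, the sum being 195 to 201 CPM against 194 to 196 CPM in scr. Their part in the members' changes was not tested.

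**Figure D5:**
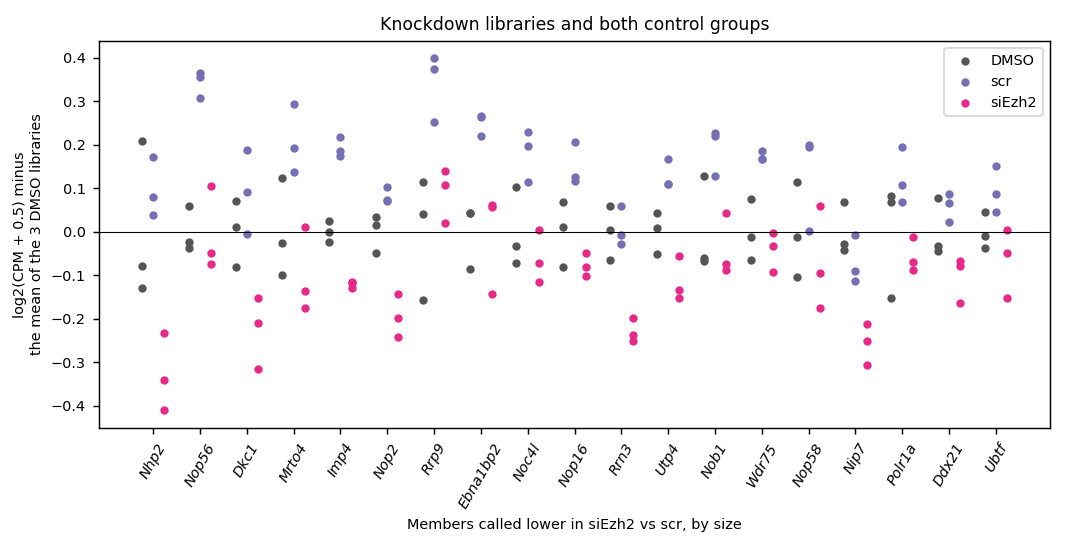
The 19 members called lower in siEzh2 against scr (horizontal axis, by size), with log2(CPM + 0.5) minus the mean of the 3 DMSO libraries for each DMSO, scr and siEzh2 library. For Nop56, Rrp9 and Ebna1bp2 the scr points stand above both other groups, while for Nhp2, Dkc1, Rrn3 and Nop2 the siEzh2 points stand below both.

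Related lists were lower with siEzh2 than in scr in part. Among all genes tested, 13.2% were higher and 12.9% lower. Of 16 exosome and exonuclease genes, 8 fell (50%) and none rose. Among those that fell were Exosc5 (−0.53 ± 0.12), Exosc8 (−0.38 ± 0.06), Exosc1 (−0.34 ± 0.07) and the nuclease Dis3 (−0.34 ± 0.07). These 4 were named after their values were seen. In scr against DMSO, 4 of the 16 were higher (25%, beside 12.2% of all genes tested). With siEzh2 against scr, other large subunit factors had 12 of 46 lower (26.1%) and none higher. Other small subunit factors had 9 of 42 lower (21.4%) and 1 higher (2.38%). No other RNA polymerase I gene of 14 was called, and 3 of 82 ribosomal protein genes fell (3.66%). Myc was at 52.1, 53.2 and 61.5 CPM in scr and at 58.6, 62.8 and 53.2 CPM with siEzh2 (0.07 ± 0.07, adjusted p = 0.548), with overlap.

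The knockdown and the compound effects were compared by interaction terms. The siEzh2 effect against scr was lower than the GSK126 effect against DMSO in 9 members and higher in none, where 20.7% of all genes tested were called, 10.1% higher and 10.5% lower. The DZNep effect was higher than the siEzh2 effect in 31 members and lower in Npm1 and Imp3, where 51.1% of all genes were called, 25.3% higher and 25.8% lower. DZNep and siEzh2 comparisons share no library. Nop2, Nop16, Nip7, Dkc1, Nop56 and Polr1a were among the members called higher with DZNep and lower with siEzh2 than in scr. Ebna1bp2 and Wdr75 fell in both. With DMSO as the control of siEzh2, Nop2, Nip7 and Dkc1 were still called lower. Nop16, Nop56, Polr1a, Ebna1bp2 and Wdr75 were not called there.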

How the data were processed

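The authors deposited raw read counts per gene as whole numbers. STAR, featureCounts and the build GRCm38 are named per the submitters' processing notes. Their versions, the annotation, the strand setting and the library kit were not stated in the labels. Of 46078 identifiers, 45229 matched GENCODE M21, and the other 849 held 0.0588% of counts.

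Changes were computed in edgeR 4.0.16 (R 4.3.3) by its quasi-likelihood test after TMM scaling, robust estimation, edgeR's low-count filter, 1 term per group and no covariate. A dispersion of 0.00409 was estimated (biological coefficient of variation 6.4%). Alternatives were DESeq2 1.42.0, its size factors in edgeR, library totals alone, no filter, the compared groups alone, each library left out, a replicate block, and DMSO as the control of siEzh2. Standard errors were derived from the test, as the size of the log2 fold change divided by the square root of its quasi-likelihood F. Replicate pairs differed beyond sampling noise (chi-square per degree of freedom 5.62 to 36.2), so each library was counted. The fit was tested on simulated data.

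Members and lists were chosen with earlier results of these data known. Library values are given for RNA polymerase I and H/ACA members, for up to 6 largest called changes each way with no overlap in DZNep, and for up to 6 called in GSK126 or siEzh2. From each other list, the 2 largest called changes each way in DZNep at a mean of at least 2 CPM were named. A gene that this rule would name is not reported here. Promoters came from RefSeq. No table of proteins was used here.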

Additional observations from a re-analysis of the deposited data

Results flagged for a closer look

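The effects of the treatments differed from each other in members, by the interaction terms of the edgeR fit. Of all genes tested, 20.7% differed between the siEzh2 effect (against scr) and the GSK126 effect (against DMSO), 10.1% higher and 10.5% lower. The share of members called was near that, at 19.1%. Of the members, 9 had a negative difference and 0 a positive one. They were Dkc1 at −0.41 ± 0.08 on the log2 scale, Nop16 at −0.36 ± 0.09, Nop58 at −0.36 ± 0.10, Nop56 at −0.34 ± 0.08, Ebna1bp2 at −0.30 ± 0.08, Utp4 at −0.27 ± 0.07, Wdr75 at −0.25 ± 0.07, Imp4 at −0.23 ± 0.07 and Wdr43 at −0.20 ± 0.07, with adjusted p from 0.000999 to 0.0472. The count was 6 without siEzh2 replicate 3. Nop56, Ebna1bp2, Imp4, Utp4, Wdr75 and Wdr43 were also higher in scr than in DMSO, by 0.34, 0.25, 0.19, 0.13, 0.17 and 0.14, and the part of the scr libraries in these differences was not tested.

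For the DZNep effect minus the siEzh2 effect, 51.1% of all genes tested were called, 25.3% higher and 25.8% lower. Of the members, 31 had a positive difference and 2 a negative one, Imp3 at −0.74 ± 0.12 and Npm1 at −0.53 ± 0.08. The 6 largest in size were Nop2 at 1.05 ± 0.08, Nop16 at 1.03 ± 0.09, Bop1 at 0.94 ± 0.09, Polr1e at 0.86 ± 0.18, Nip7 at 0.83 ± 0.07 and Bysl at 0.77 ± 0.09. Of the 31, 29 were called in every setting tried.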

How the results depend on the processing

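For the members called in GSK126 against DMSO, 1 with all libraries, the count was 0 with library totals alone and 0 with the compared groups alone, and 0 to 2 with each library left out. Members called in siEzh2 against scr were 7 with DMSO as the control and 13 to 21 with each library left out, and their median log2 fold change was −0.060 with DMSO as the control and −0.169 to −0.099 with each library left out. With that control Rrp9 reversed to 0.08, and outside the members Gas5 to 0.02, Snhg12 to 0.02, Dhx33 to −0.06, Exosc2 to 0.01 and Polr3e to 0.00, none of them called there. Members called in scr against DMSO were 4 without the count filter, 4 with the compared groups alone, and 4 to 13 with each library left out. The cause of these shifts was not tested. Members called in DZNep against DMSO were 27 to 35 over all settings. With each library left out the counts were 33 to 39 in DZNep against GSK126, 6 to 11 for siEzh2 minus GSK126 and 31 to 35 for DZNep minus siEzh2.

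With library totals alone, 58.5% of the calls of scr against DMSO were higher, beside 47.3%, and no scaling moved the median of all genes by over 0.1. After each gene's group mean was subtracted, same-numbered samples of the compared groups correlated at −0.21 to 0.13. With 3 libraries per group, these values cannot settle whether same-numbered samples were handled together. With the replicate block, the members called were 35 in DZNep against DMSO, 20 in siEzh2 against scr and 1 in GSK126 against DMSO. No library had as few as 3 counts of any member, so depth did not limit detection, but SE on the log2 scale of 0.05 to 0.13 between 2 groups, and of 0.07 to 0.18 for differences of effects, limited the calling of small changes.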

Other observations

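In a principal component analysis of log2(CPM + 0.5) over the 47 members, component 1 (73.7% of variance) placed the DZNep libraries at 2.00 to 2.34 and the other libraries at −1.13 to −0.18. Over all genes, component 1 took 64.8%. On the members' second component (10.9%) the scr libraries stood at 0.65 to 0.73, and DMSO replicate 3, at 0.54, was the nearest library of another group.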
